A study of Mus musculus with 40 samples.

Results

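Metallothioneins and the genes that regulate and move zinc were followed in mouse aorta through 5 genes, Mt1, Mt2, Mtf1, Slc30a1 and Slc39a14. They were taken by gene symbol from the 17402 genes listed in a genotype experiment and the 15399 listed in a cyclosporine A (CsA) experiment. All 5 were listed in both tables and all 5 passed the filter on low values. They were selected on their measured signal over all groups and all hours of angiotensin-II (Ang-II) infusion, so their values are a description, no p-value is given for any of them, and nothing is supported with them. The signal of a gene is its deposited value on a counts-per-million scale, with library sizes scaled by the authors. A gene is said to be called, and to rise or fall, when limma gave an adjusted p under 0.05 over all protein-coding genes of the table.

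The genotype experiment held 22 libraries of aorta from male mice. Cn-Ctl mice carried the labelled genotype CnB1-flox;Myh11-CreERT2-neg, and SM-Cn-/- mice carried the same floxed gene with Myh11-CreERT2, a tamoxifen-inducible Cre recombinase driven by a smooth muscle promoter. CnB1, encoded by Ppp3r1, is the regulatory subunit of the phosphatase calcineurin (Cn). All mice of this experiment, controls included, had received tamoxifen (1 mg per day for 5 days, from 10 to 12 weeks of age), and 6 weeks later they were left untreated or were infused with Ang-II from a minipump (1 µg/kg/min) for 2, 6 or 24 h. Each group had 3 libraries, except untreated Cn-Ctl and Cn-Ctl at 24 h, with 2 each; the study had discarded a library of untreated Cn-Ctl as an outlier. The CsA experiment held 18 libraries, 3 per group, of male C57BL/6J mice. WT mice and mice given CsA, an inhibitor of the phosphatase activity of Cn, for 5 days were left untreated or infused with Ang-II for 2 or 24 h. CsA came from an implanted pump that WT mice did not carry, so the drug and the pump cannot be told apart. Ang-II likewise came from a pump that untreated mice did not carry, so Ang-II and its pump cannot be told apart in either experiment. The study's methods describe controls operated without a pump, but do not say when the untreated mice of these libraries were operated. Ang-II-treated Cn-Ctl, WT and CsA mice had been selected for a systolic blood pressure above 130 mmHg, whereas SM-Cn-/- mice were not. The study removed SM-Cn-/- mice in which deletion of CnB1 could not be shown, and used a piece of aorta for a PCR of its recombination. It also removed CsA mice in which inhibited dephosphorylation of NFAT, a Cn substrate, could not be shown in the thymus. Each library was a pool of 3 aortas cleared of adventitia and perivascular tissue, so the spread between libraries is a spread between pools.

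Depth ran from 2.73 to 10.3 M reads in the genotype experiment and from 19.0 to 38.9 M in the CsA experiment. The 7 smooth muscle markers were all listed with reads in every library. Summed, they gave a signal of 26976 to 48733 over the Cn-Ctl and 20361 to 31168 over the SM-Cn-/- libraries, and of 23590 to 35043 over the WT and 16054 to 27293 over the CsA libraries. Ppp3r1 itself did not separate the genotypes, with 78.8 and 104 in untreated Cn-Ctl and 48.8 to 83.5 in untreated SM-Cn-/- libraries (log2 difference -0.46, limma adjusted p = 0.983), so its level does not check the labels of this whole-tissue RNA. Rcan1, a known target of Cn signalling, did separate them at 2 h of Ang-II, with 368, 404 and 380.2 in Cn-Ctl and 46.6, 31.7 and 55.3 in SM-Cn-/- libraries (log2 difference -3.13, limma adjusted p = 3.28e-06).

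Metallothioneins are small, cysteine-rich proteins that bind zinc and copper in the cytosol and buffer free zinc. Their genes are classically switched on by zinc through MTF1, a zinc-sensing transcription factor that binds metal response elements in promoters, and also by glucocorticoids and, in the acute phase response, by IL-6 and STAT3. Zinc leaves the cell through ZnT1, encoded by Slc30a1, another classical MTF1 target, and enters the cytosol through transporters of the Slc39a (ZIP) family, of which ZIP14, encoded by Slc39a14, also carries manganese and iron and is induced by IL-6 in liver.

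In GRCm38, Mt2 (chr8:94172664-94173568, plus strand) and Mt1 (chr8:94179082-94180327, plus strand) lie side by side, with 5513 bases between them, in a cluster that also holds Mt3 and Mt4. Mtf1 lies at chr4:124802104-124849800 and Slc30a1 at chr1:191906767-191913247, both on the plus strand, and Slc39a14 at chr14:70303469-70351425 on the minus strand. The Mt1 and Mt2 transcripts shared no 25-base word (0 of 1267 words of Mt1 and 579 of Mt2), and their longest identical run was 20 bases. Promoter windows of 250 bases before to 50 bases after the start site, taken from RefSeq (GRCm38.p6), matched 4 of the 5 genes. The core of the metal response element was searched on both strands as TGCACNC or TGCGCNC. Those of Mt1, Mt2 and Slc30a1 are printed because they show the difference in number of such cores among 3 genes classically regulated by MTF1, with the cores in capitals, 5′ to 3′ on the plus strand:
Mt1, chr8:94178839-94179138: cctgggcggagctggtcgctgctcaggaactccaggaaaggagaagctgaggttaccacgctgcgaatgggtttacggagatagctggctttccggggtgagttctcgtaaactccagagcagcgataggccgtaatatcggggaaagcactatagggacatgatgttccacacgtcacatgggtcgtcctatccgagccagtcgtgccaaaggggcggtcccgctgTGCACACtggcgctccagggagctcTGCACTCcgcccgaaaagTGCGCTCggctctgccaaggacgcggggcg
Mt2, chr8:94172368-94172667: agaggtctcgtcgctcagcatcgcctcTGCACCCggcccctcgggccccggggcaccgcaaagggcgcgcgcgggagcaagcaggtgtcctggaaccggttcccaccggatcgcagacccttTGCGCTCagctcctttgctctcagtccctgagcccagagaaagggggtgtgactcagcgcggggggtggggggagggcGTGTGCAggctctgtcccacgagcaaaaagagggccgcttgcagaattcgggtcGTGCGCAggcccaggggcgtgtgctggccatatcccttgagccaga
Slc30a1, chr1:191906531-191906830: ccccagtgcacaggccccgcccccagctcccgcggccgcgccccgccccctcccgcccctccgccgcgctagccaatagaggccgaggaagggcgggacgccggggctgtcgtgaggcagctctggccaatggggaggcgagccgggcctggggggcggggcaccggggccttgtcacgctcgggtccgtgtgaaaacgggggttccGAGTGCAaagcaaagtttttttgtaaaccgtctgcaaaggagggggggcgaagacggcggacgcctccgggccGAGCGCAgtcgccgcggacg
None of the printed cores overlaps another. The Mt1 window held 3 cores, the Mt2 window 4 and the Slc30a1 window 2, whereas the Mtf1 window held 0. Of 32851 windows of the same length, 25.7% held at least 1 core, 7.11% at least 2, 1.97% at least 3 and 0.517% at least 4. A glucocorticoid-type inverted repeat (ACANNNTGT, both strands) was present once among these windows, in Mt1, against 6.85% of all windows, and a STAT-type repeat (TTCNNNGAA, both strands) in none of the 4, against 8.3% of all windows. These matches are letters and not tested binding sites.

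Ang-II was followed by higher Mt2 and Mt1 in control mice within 2 h, and both were still higher at 24 h. Mt2 signal was 12.02 and 15.4 in the libraries of untreated Cn-Ctl mice and 276, 270.1 and 169 at 2 h. At 6 h it was 217, 228 and 395, and at 24 h 131 and 248. Every treated library was therefore above both untreated ones, by log2 4.05 ± 0.36 (SE) at 2 h, 4.26 ± 0.36 at 6 h and 3.68 ± 0.39 at 24 h, or 16.5-fold, 19.1-fold and 12.8-fold on the log2(signal + 0.5) scale. In order of size, Mt2 was rank 14, 2 and 11 of the 14424 differences tested at 2, 6 and 24 h. Mt1 signal was 36.3 and 37.7 without Ang-II, 279, 306 and 146 at 2 h, 207, 182 and 325 at 6 h, and 110.4 and 193 at 24 h. Its log2 differences were 2.63 ± 0.34, 2.62 ± 0.34 and 1.96 ± 0.37, again with no overlap between treated and untreated libraries. The 6 macrophage markers summed to 47.6 and 59.4 without Ang-II and to 73.4 to 181, 106 to 177 and 148 to 170 at 2, 6 and 24 h, and the 3 listed of 5 neutrophil markers to 0.218 and 0.821 and then to 1.30 to 7.17, with S100a8 and S100a9 at 0 reads in both untreated libraries. S100a9 was also at 0 in replicate 1 at 2 h and S100a8 in replicate 3 at 6 h. Neither list overlapped between untreated and treated Cn-Ctl libraries. SM-Cn-/- macrophage sums were 84.5 to 138 untreated, then 107 to 135, 140 to 211 and 102 to 183 at the 3 times. In WT they were 64.3 to 89.7 untreated, 55.7 to 90.2 at 2 h and 170 to 242 at 24 h. In CsA they were 143 to 194, 90.2 to 110 and 150 to 192. Treated neutrophil sums overlapped untreated ones in SM-Cn-/- and CsA at every time, and in WT at 2 h but not 24 h. The part of these lists in the metallothionein values was not tested. For Mt2 and Mt1 in Cn-Ctl the 3 times could not be put in order, because the libraries of each overlapped those of the next.

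Slc39a14 also rose in Cn-Ctl mice. Its signal was 68.2 and 66.7 without Ang-II, 166, 177 and 185 at 2 h, 95.6, 136 and 135 at 6 h, and 154 and 163 at 24 h. The 2 h and 24 h libraries thus lay above all 6 h libraries, and all of them above the untreated ones, with log2 differences of 1.37 ± 0.21, 0.83 ± 0.21 and 1.22 ± 0.23. In Cn-Ctl, 3 of the 5 genes were called at 2 h (6.23% of all genes tested were called), 3 at 6 h (3.97%) and 3 at 24 h (5.62%), each time Mt1, Mt2 and Slc39a14. The Slc39a14 call at 6 h was lost without either untreated library and without replicate 2 or 3 of the 6 h group, and when only the groups compared were fitted, leaving 2 genes called, and the Mt1 call at 24 h was lost without replicate 3 of that group.

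**Figure D1:**
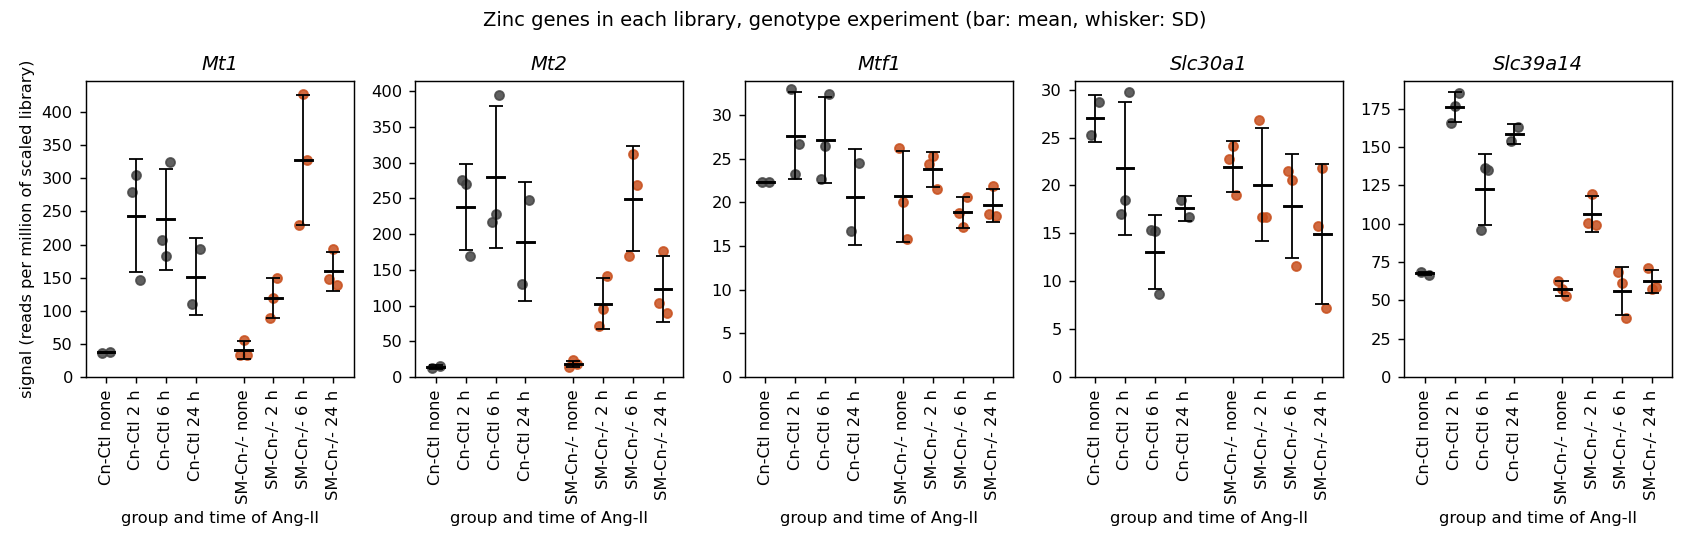
Signal (counts-per-million scale, linear axis from 0) of the 5 genes in each library of the genotype experiment, by genotype and hours of Ang-II, with the mean (bar) and SD (whisker). Mt1 and Mt2 leave the untreated level in both genotypes, Slc39a14 at 6 and 24 h is above the untreated level in Cn-Ctl and overlaps it in SM-Cn-/- libraries, and no library exceeds 33.0 for Mtf1 or 29.8 for Slc30a1.

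In the SM-Cn-/- libraries, Mt2 and Mt1 also rose at every time of Ang-II, with their highest means at 6 h. Mt2 signal was 13.96, 23.1 and 17.9 in untreated SM-Cn-/- mice and 70.8, 95.7 and 142 after 2 h of Ang-II. At 6 h the libraries read 169.5, 312 and 268, and at 24 h 104, 176 and 89.0. All 3 libraries at 6 h exceeded all 3 at 2 h, and the log2 differences from untreated were 2.43 ± 0.32, 3.72 ± 0.32 and 2.68 ± 0.32. Mt1 had 32.9, 55.8 and 33.6 without Ang-II, 89.8, 119 and 149.6 at 2 h, 230.3, 427 and 327 at 6 h, and 148, 193 and 138 at 24 h. The 6 h libraries of Mt1 were above those of both other times, and the log2 differences were 1.55 ± 0.30, 2.99 ± 0.30 and 1.99 ± 0.30.

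In the same mice Slc39a14 rose at 2 h and was not called later. Its signal was 62.3, 57.3 and 52.7 without Ang-II, rose to 100.2, 119 and 98.8 at 2 h, and was 68.3, 61.4 and 38.7 at 6 h and 71.0, 57.5 and 58.8 at 24 h. The libraries at 6 and 24 h overlapped the untreated ones, and the log2 differences were 0.88 ± 0.19 at 2 h, -0.07 ± 0.19 at 6 h (95% interval -0.46 to 0.31) and 0.12 ± 0.19 at 24 h (-0.27 to 0.50). Of the 5 genes, 3 were called at 2 h (1.13% of all genes), 2 at 6 h (2.34%) and 2 at 24 h (0.79%), Slc39a14 being absent from the calls at the later times. At 2 h, Mt1 and Slc39a14 were both lost without replicate 3 of the untreated group, which left 1 gene called, and Mt1 was lost without replicate 3 and Slc39a14 without replicate 1 or 2 of the 2 h group.

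Setting the genotypes side by side, Slc39a14 was lower in SM-Cn-/- than in Cn-Ctl aortas at each time of Ang-II, and Mt2 at 2 h. In the untreated mice 0 of the 5 genes were called by limma, 0 had an unadjusted p under 0.05, and edgeR and DESeq2 called 0 each (0.0139% of all genes were called). Mt2 libraries overlapped (log2 difference 0.38, 95% interval -0.36 to 1.13), and for Slc39a14 the 3 SM-Cn-/- libraries lay just under those of Cn-Ctl (log2 -0.23, 95% interval -0.66 to 0.20).

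At 2 h of Ang-II, all SM-Cn-/- libraries were below all Cn-Ctl libraries for Mt2 (log2 difference -1.23 ± 0.32, 0.425 of the Cn-Ctl level) and for Slc39a14 (-0.73 ± 0.19). Both were called, 2 of the 5 genes against 3.7% of all genes. Mt1 was -0.99 ± 0.30, with 1 SM-Cn-/- library above the lowest Cn-Ctl library, and was not called by limma or edgeR but was by DESeq2, which called 3 of the 5. Without replicate 1 or 2 of the Cn-Ctl group, or without replicate 1 of the SM-Cn-/- group, 0 of the 5 were called. Without replicate 2 of SM-Cn-/- only Slc39a14 was called and without its replicate 3 only Mt2, whereas without replicate 3 of Cn-Ctl the calls were Mt1 and Mt2, and without replicate 3 of Cn-Ctl at 6 h all 3 genes were called.

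At 6 h only Slc39a14 was called, 1 of the 5 against 1.98% of all genes, with a log2 difference of -1.14 ± 0.19. Mt2 and Mt1 libraries of the genotypes overlapped at that time, with -0.16 (95% interval -0.82 to 0.51) and 0.46 (-0.16 to 1.09). At 24 h again Slc39a14 alone was called, 1 of the 5 against 4.94%, at -1.34 ± 0.21 or 0.394 of the Cn-Ctl level, while Mt2 was -0.61 (-1.36 to 0.13) and Mt1 0.11 (-0.58 to 0.81). The summed signal of the 6 endothelial markers moved with genotype too, at 299 to 543 in Cn-Ctl and 647 to 857 in SM-Cn-/- libraries at 2 h, at 460 to 597 and 558 to 1285 at 6 h, and at 444 to 469 and 1059 to 1127 at 24 h, and at 314 to 427 and 549 to 724 without Ang-II. The smooth muscle markers summed to 27877 to 28379 in Cn-Ctl and 20361 to 23798 in SM-Cn-/- libraries without Ang-II, to 26976 to 35140 and 24736 to 31168 at 2 h, to 31520 to 33569 and 22706 to 28376 at 6 h, and to 27104 to 48733 and 23842 to 26594 at 24 h, overlapping at 2 h alone. None of the smooth muscle markers was at 0 reads in these groups. The part of either list in the Slc39a14 difference was not tested. In bulk tissue, fewer cells of a type and less RNA per cell cannot be told apart.

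The difference in response, that is the Ang-II difference in SM-Cn-/- minus that in Cn-Ctl, was called for 0 of the 5 genes at each time by limma. At 2 h (0.513% of all genes called) 2 of the 5 had an unadjusted p under 0.05, at 6 h (0.0624%) 1 and at 24 h (0.513%) 1; edgeR called 0 at each time and DESeq2 called 0, 0 and 1, the last being Slc39a14. For Mt2 the difference in response was log2 -1.62 ± 0.48 at 2 h, -0.54 ± 0.48 at 6 h and -0.998 ± 0.508 at 24 h. For Mt1 it was -1.08 ± 0.45, 0.37 ± 0.45 and 0.02 ± 0.47. For Slc39a14 it was -0.49 ± 0.28, -0.91 ± 0.28 and -1.11 ± 0.29, and the 24 h value passed the threshold without replicate 3 of SM-Cn-/- at 6 h. These comparisons share their control libraries with the responses above.

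Untreated mice given CsA already had more metallothionein RNA than WT mice. Mt2 signal was 26.0, 33.4 and 42.4 in untreated WT and 81.7, 115 and 129 in untreated CsA libraries. Mt1 was 70.2, 83.7 and 103 in WT and 143, 199 and 205 in CsA libraries. Neither gene overlapped between the groups, with log2 differences of 1.67 ± 0.31 and 1.08 ± 0.27, and both were called, 2 of the 5 genes against 25.2% of all genes. Slc39a14 was at 71.0, 70.3 and 83.6 in WT and 62.0, 67.0 and 57.4 in CsA libraries (log2 -0.27, 95% interval -0.55 to 0.02). All CsA libraries thus lay below all WT libraries, and the gene was not called. The same groups differed in their markers: the 6 adipose markers summed to 353 to 667 in untreated WT and 2333 to 4177 in untreated CsA libraries, the 7 smooth muscle markers to 25100 to 34355 and 16054 to 18111, and the 6 endothelial markers to 347 to 584 and 898 to 1030. The 6 macrophage markers summed to 64.3 to 89.7 in WT and 143 to 194 in CsA libraries, and the 4 listed of 5 neutrophil markers to 0.446 to 1.162 and 9.85 to 26.2. None of these 5 lists overlapped between the groups. Among the adipose, smooth muscle, macrophage and neutrophil markers, those at 0 reads were Retnlg and S100a9 of the neutrophil list, each in untreated WT libraries. The part of cell composition in the metallothionein difference was not tested.

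With Ang-II both metallothioneins rose in WT aorta at 2 and 24 h and, from the higher starting level, in CsA aorta at 2 h, and Mt2 alone was called in CsA aorta at 24 h. Mt2 signal in WT was 254, 278 and 306 at 2 h and 239, 344 and 363 at 24 h, and Mt1 was 369, 360.0 and 380.3 at 2 h and 236, 282 and 371 at 24 h. All were above the untreated libraries, by log2 3.05 ± 0.31 and 3.20 ± 0.31 for Mt2 and 2.12 ± 0.27 and 1.78 ± 0.27 for Mt1. In CsA libraries Mt2 was 199, 331 and 231 at 2 h and 166, 241 and 485 at 24 h, and Mt1 was 269, 408 and 310.4 and then 206, 293 and 542. These too lay above the untreated CsA libraries, by log2 1.21 ± 0.31 and 1.33 ± 0.31 for Mt2 and 0.85 ± 0.27 and 0.83 ± 0.27 for Mt1. Replicate 3 of CsA at 24 h, the highest for both genes, was also the deepest library (38.9 M reads). It had an adipose marker sum of 3814, against 1202 and 1968 in the other 2 libraries of that group. Its neutrophil marker sum was 87.8 against 4.91 and 27.6, and its smooth muscle marker sum 18836 against 26452 and 27293.

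Slc39a14 in WT was 171, 135 and 163 at 2 h and 199, 219 and 154 at 24 h, against 110.1, 93.5 and 101 and then 95.9, 110.0 and 127 in CsA libraries. It rose in both arms, by log2 1.05 ± 0.13 and 1.33 ± 0.13 in WT and 0.71 ± 0.13 and 0.83 ± 0.13 in CsA. In WT, 3 of the 5 genes were called at 2 h (21.4% of all genes) and 3 at 24 h (35%). In CsA, 3 were called at 2 h (20.1%) and 2 at 24 h (8.98%), where Mt1 was the gene not called by limma and DESeq2 called 3. Without replicate 1 of untreated CsA, only Slc39a14 was called at either time, and the same held at 2 h without replicate 2 of CsA at 2 h. Mt1 at 2 h was also lost without replicate 2 or 3 of untreated CsA or replicate 3 of CsA at 2 h, and at 24 h Mt1 was gained without replicate 1 of that group.

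**Figure D2:**
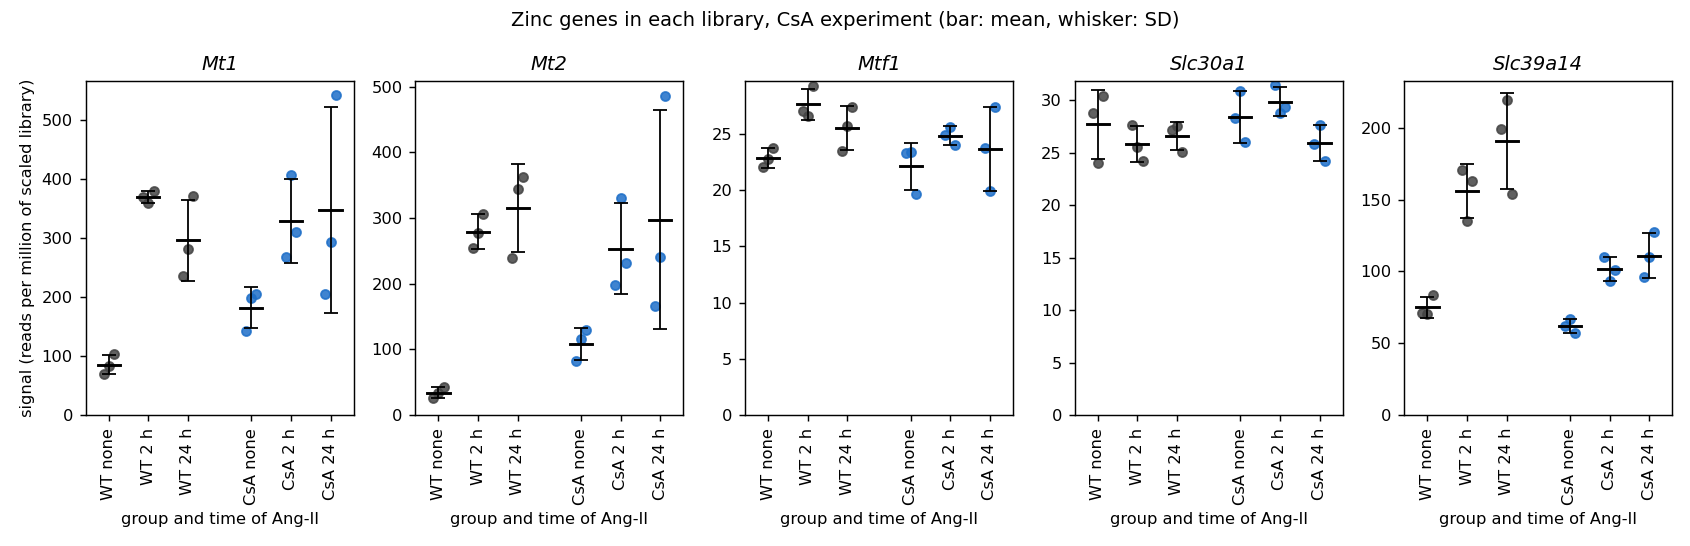
Signal (counts-per-million scale, linear axis from 0) of the 5 genes in each library of the CsA experiment, by group and hours of Ang-II, with the mean (bar) and SD (whisker). Untreated CsA libraries start above untreated WT libraries for Mt1 and Mt2, the treated groups overlap for both, and for Slc39a14 the CsA libraries with Ang-II lie below those of WT.

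With Ang-II on board, the metallothioneins of CsA and WT aortas overlapped and Slc39a14 did not. At 2 h the CsA minus WT log2 difference was -0.17 for Mt2 (95% interval -0.83 to 0.49), -0.19 for Mt1 (-0.77 to 0.39) and -0.61 ± 0.13 for Slc39a14, which was the single gene called (1.33% of all genes). Its call at 2 h was lost without any 1 of 8 libraries, among them each of the 3 CsA libraries at 2 h and WT replicates 1 and 3 at 2 h. At 24 h Mt2 was -0.21 (-0.87 to 0.45), Mt1 0.14 (-0.44 to 0.72) and Slc39a14 -0.77 ± 0.13, again the single gene called (5.58%), a call lost without WT replicate 2 at 24 h. Adipose markers summed to 520 to 856 in WT and 1014 to 3012 in CsA libraries at 2 h and to 786 to 852 and 1202 to 3814 at 24 h. Smooth muscle markers summed to 28012 to 35043 and 19752 to 25595 at 2 h, without overlap, and to 23590 to 32937 and 18836 to 27293 at 24 h. Endothelial markers summed to 522 to 582 and 748 to 906 at 2 h, without overlap, and to 613 to 730.2 and 722 to 1221 at 24 h, and the part of these markers in the values was not tested.

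The response to Ang-II in CsA minus that in WT mice was log2 -1.84 ± 0.44 at 2 h and -1.88 ± 0.44 at 24 h for Mt2, and -1.27 ± 0.39 and -0.95 ± 0.39 for Mt1. For Slc39a14 it was -0.35 ± 0.19 and -0.51 ± 0.19, called at neither time. At 2 h 0 of the 5 were called by limma (0.146% of all genes), with 2 at an unadjusted p under 0.05, 0 called by edgeR and 2 by DESeq2. At 24 h Mt2 was called, 1 of the 5 against 9.42% of all genes. The 24 h call was lost without replicate 2 of CsA at 24 h, which left 0 called, whereas without replicate 3 of that group Mt1 and Slc39a14 were called as well and without replicate 3 of WT at 24 h Slc39a14 was. For Mt2 and Mt1 the treated levels of the arms overlapped and their untreated levels did not. The responses of an arm share its untreated libraries.

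**Figure D3:**
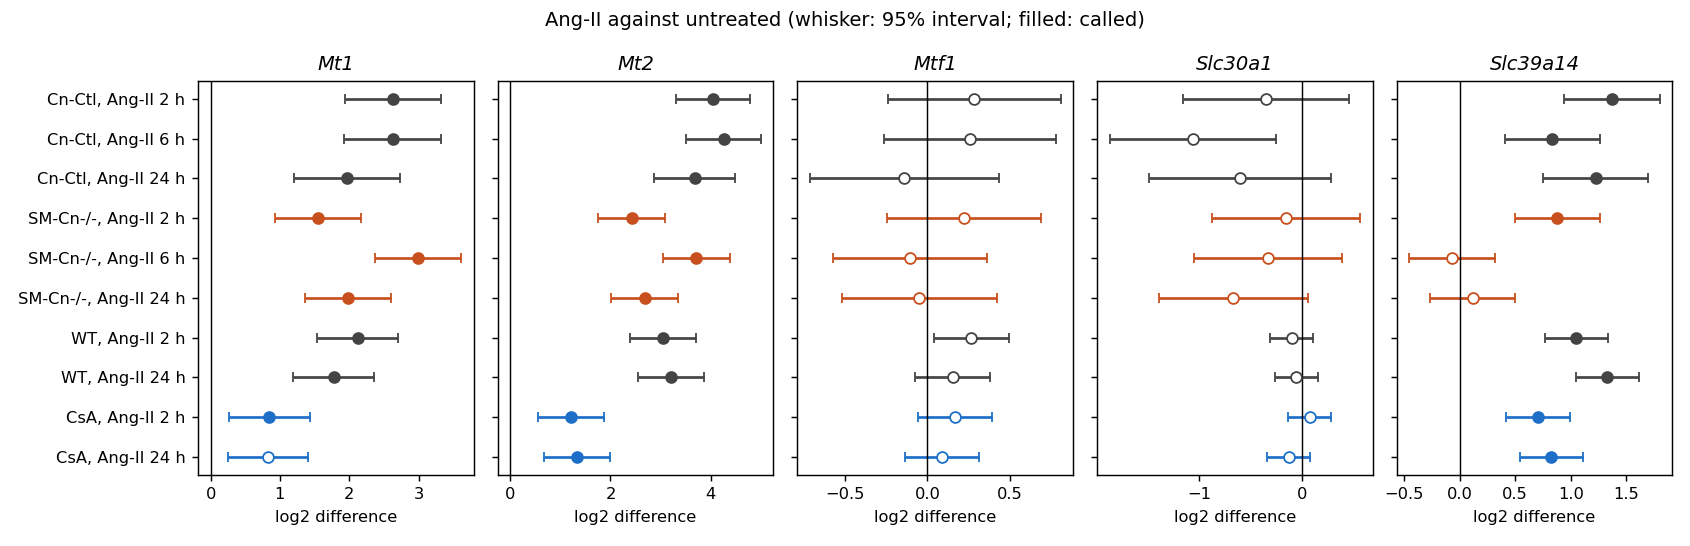
Log2 difference of Ang-II against untreated libraries for the 5 genes in the 10 responses (points; whiskers, 95% interval; filled points were called). Mt2 lies above 0 in all 10 responses, the Slc39a14 interval spans 0 in SM-Cn-/- at 6 and 24 h, and Mtf1 and Slc30a1 have no filled point.

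Mtf1 and Slc30a1, the sensor and the exporter, were called in none of the 10 responses, the 7 group comparisons or the 5 differences in response. Mtf1 signal ran from 15.8 to 33.0 over the 22 libraries of the genotype experiment (median 22.4) and from 19.7 to 29.2 over the 18 of the CsA experiment (median 23.9). Its log2 differences were -0.14 to 0.29 in the responses. The treated libraries all lay above the untreated ones in Cn-Ctl at 2 and 6 h, in WT at 2 h and in CsA at 2 h, and overlapped them in the other responses. The share of all genes that separated in this way was not counted, so no rise is read from it. In WT, for example, Mtf1 was 27.1, 26.6 and 29.2 at 2 h against 22.1, 22.8 and 23.8 without Ang-II (log2 0.27, 95% interval 0.04 to 0.49). In SM-Cn-/- at 6 h it was below Cn-Ctl in all 3 libraries (-0.50, -0.97 to -0.04), without a call. Slc30a1 signal ran from 7.22 to 29.8 (median 18.5) in the genotype experiment, on 27 to 194 reads, and from 24.0 to 31.4 (median 27.6) in the CsA experiment, on 466 to 945 reads. In Cn-Ctl at 6 h it was 15.4, 15.2 and 8.62 against 25.3 and 28.7 without Ang-II, a log2 difference of -1.06 ± 0.39 that was not called. In WT, where depth was greater, it was within a log2 interval of -0.30 to 0.11 at 2 h and -0.26 to 0.15 at 24 h. Among the 5 genes, metal response element cores were found in the windows of Mt1 and Mt2, which rose, and of Slc30a1, which was not called. Slc39a14 had no window, and the part of these cores in the values was not tested.

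The balance of Mt2 and Mt1 also differed between groups. The ratio of Mt2 to Mt1 signal, in which gene length is the same in every group, was 0.370 ± 0.056 (SD, n = 2) in untreated Cn-Ctl, 0.457 ± 0.065 (n = 3) in untreated SM-Cn-/-, 0.393 ± 0.021 (n = 3) in untreated WT and 0.595 ± 0.033 (n = 3) in untreated CsA libraries. With Ang-II the Cn-Ctl ratio was 1.01 ± 0.14 after 2 h, 1.17 ± 0.11 after 6 h and 1.24 ± 0.07 after 24 h. In SM-Cn-/- it was 0.847 ± 0.087, 0.762 ± 0.050 and 0.753 ± 0.140 at the same times. The genotypes did not overlap at 6 h (1.05 to 1.25 against 0.730 to 0.819) or at 24 h (1.18 to 1.29 against 0.643 to 0.911), and overlapped at 2 h. In the CsA experiment the ratio was 0.754 ± 0.061 at 2 h and 1.07 ± 0.13 at 24 h in WT and 0.765 ± 0.040 and 0.841 ± 0.047 in CsA libraries, with overlap at 2 h and none at 24 h. The log2 difference from untreated was larger for Mt2 than for Mt1 in each of the 10 responses. The levels of both genes otherwise went together: Pearson r of their log2 signal was 0.971 over 22 libraries and 0.977 over 18, and the order of the libraries by Mt1 and by Mt2 was the same in 9 of the 12 groups of 3. These points share libraries and depth, and no test was made of them.

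**Figure D4:**
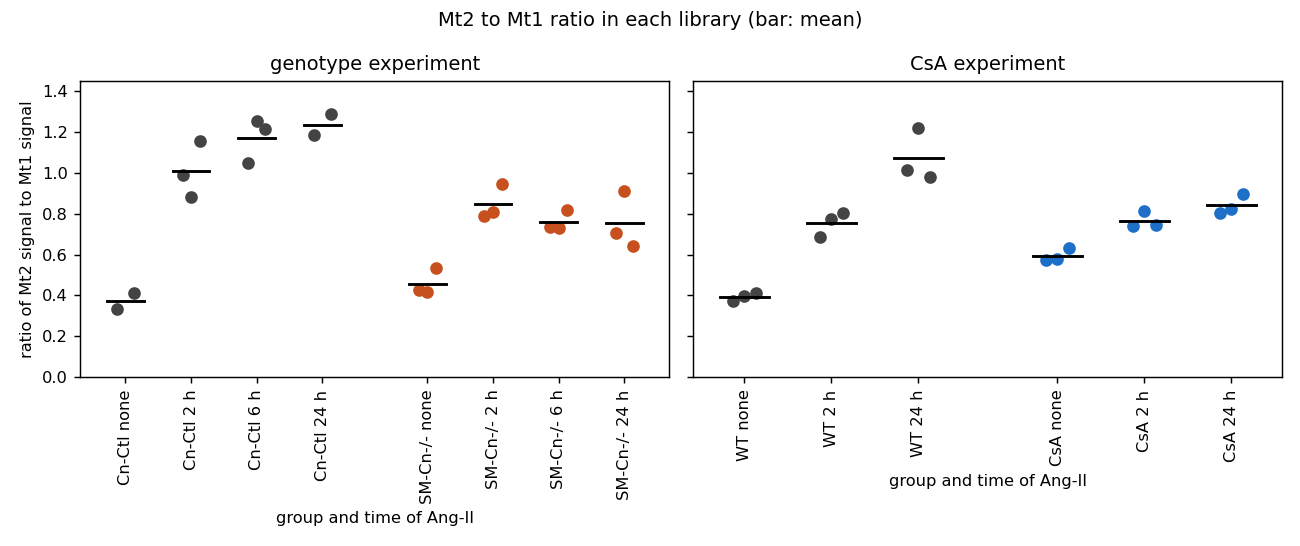
Ratio of Mt2 signal to Mt1 signal (linear axis from 0) in each library of both experiments, by group and hours of Ang-II, with the mean (bar). The ratio is 0.331 to 0.633 in the untreated libraries and reaches 1.18 to 1.29 in Cn-Ctl at 24 h, against 0.643 to 0.911 in SM-Cn-/- at 24 h.

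The genes whose profile was most like that of Mt2, by the smaller of the Pearson r over the 22 and the 18 libraries among 10347 genes, were Mt1, Map3k6 (a kinase, 0.904), Cebpd (a transcription factor of the acute phase response, 0.899), Slc3a2 (a subunit of amino acid transporters, 0.872) and Por (cytochrome P450 reductase, 0.861). Map3k6 had a log2 difference of 1.85 in Cn-Ctl and 1.53 in SM-Cn-/- at 2 h and of 2.07 and 2.45 at 6 h. Slc39a14 had a different company, Plpp1 (a lipid phosphatase, 0.942), Lox (lysyl oxidase, which crosslinks collagen, 0.928), Rras2 (a small GTPase, 0.916), Ddx21 (an RNA helicase, 0.909) and Gorasp2 (a Golgi protein, 0.908). Lox had log2 differences of 3.06, 1.98 and 2.27 at 2, 6 and 24 h in Cn-Ctl and of 1.55, 0.49 and 0.56 in SM-Cn-/-. Between Mt2 and Slc39a14 the smaller r was 0.464, and between Mt2 and Mtf1 0.244. The r values describe profiles over groups that share controls and were not tested.

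Among the other zinc genes, 16 were tested in each experiment. In the genotype experiment 3 were called in at least 1 of the 10 responses and group comparisons, where 15.4% of all genes were, all 3 of the Slc39a family, and the other 13 had log2 differences between -1.44 and 1.72 in the responses and group comparisons. Slc39a13 (ZIP13, known from connective tissue) rose in Cn-Ctl at 6 h (log2 1.10 ± 0.26, limma adjusted p = 0.015) and at 24 h (1.57 ± 0.28, adjusted p = 0.00186), from 29.6 and 30.6 to 48.9 to 95.8 and to 80.0 and 102. It was lower in SM-Cn-/- than in Cn-Ctl at 2 h (-0.86 ± 0.23, adjusted p = 0.0385), with 24.9 to 33.7 against 48.8 to 62.5. Slc39a6 (ZIP6, a plasma membrane importer) rose in Cn-Ctl at 2 h (1.07 ± 0.32, adjusted p = 0.0473), and Slc39a7 (ZIP7, which releases zinc from the secretory pathway) at 24 h (0.99 ± 0.23, adjusted p = 0.0143). Of the 11 Slc39a genes tested, Slc39a14 included, 2, 2 and 3 rose in Cn-Ctl at 2, 6 and 24 h, where 4.72%, 2.72% and 3.22% of all genes rose, and 1, 0 and 0 in SM-Cn-/-, where 0.984%, 1.5% and 0.638% did, with 0 falling. Slc39a14, chosen on these values, was among those that rose at each time in Cn-Ctl and was the only 1 in SM-Cn-/-. At 24 h the 11 genes had a median log2 difference of 0.72 in control mice and of 0.15 in the SM-Cn-/- mice, beside -0.02 and 0.00 over all genes tested. Of the 7 Slc30a genes tested 0 were called in any comparison of this experiment.

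In the deeper CsA experiment 11 of the 16 were called at least once in the 7 responses and group comparisons, where 62.7% of all genes were, and the other 5 had log2 differences between -0.58 and 1.06. Of the 11 Slc39a genes, Slc39a14 included, 7 rose and 1 fell in WT at 24 h, where 18.1% of all genes rose and 16.9% fell. In CsA at 24 h 4 rose and 0 fell, where 5.2% of all genes rose and 3.77% fell. Their medians were 0.60 in WT and 0.25 in CsA, beside 0.00 and -0.02 over all genes. Slc39a14, chosen on these values, was among those that rose in both arms. Slc39a13 rose in both arms at 24 h, by 0.71 ± 0.11 in WT (limma adjusted p = 0.000107) and by 0.79 ± 0.11 in CsA (0.000719), and so did Slc39a7 (0.57 and 0.40) and Slc39a1 (ZIP1, 0.60 and 0.36). Slc39a6 rose in WT at 2 and 24 h (0.45 and 0.64) and in CsA at 2 h (0.59), and was lower in CsA than in WT aortas at 24 h (-0.67 ± 0.12, adjusted p = 0.00708). Slc39a11 rose in WT at both times (0.70 and 0.91) and Slc39a3 fell (-0.44 and -0.39).

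The signal of Slc39a8 (ZIP8, an importer of zinc and manganese) was 2.38 to 3.17 in untreated WT and 7.26 to 51.2 in WT at 24 h (2.76 ± 0.52, limma adjusted p = 0.000699), and 6.49 to 17.1 in untreated CsA, 1.58 to 3.55 in CsA at 2 h and 8.05 to 11.99 in CsA at 24 h. It was higher in untreated CsA than in untreated WT (1.65 ± 0.52, adjusted p = 0.0296), fell in CsA at 2 h (-1.75 ± 0.52, adjusted p = 0.0264), and its response at 24 h was smaller in CsA (-2.68 ± 0.73, adjusted p = 0.033). Among the Slc30a genes, Slc30a4 rose in WT at 2 and 24 h (0.40 and 0.45) and in CsA at 2 h (0.43) and was lower in CsA than in WT at 24 h (-0.48), Slc30a5 rose in WT at 24 h (0.19), Slc30a7 fell in WT at 2 h (-0.30), and Slc30a6 and Slc30a7 were lower in untreated CsA than in untreated WT (-0.32 and -0.35). In untreated CsA against WT, Slc39a13 and Slc39a6 were lower as well (-0.42 and -0.41). Mt3, listed in the CsA experiment alone, had 0 to 39 reads in 17 of the 18 libraries and 155 reads, a signal of 6.24, in replicate 3 of CsA at 2 h. It was called in no comparison.

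**Figure D5:**
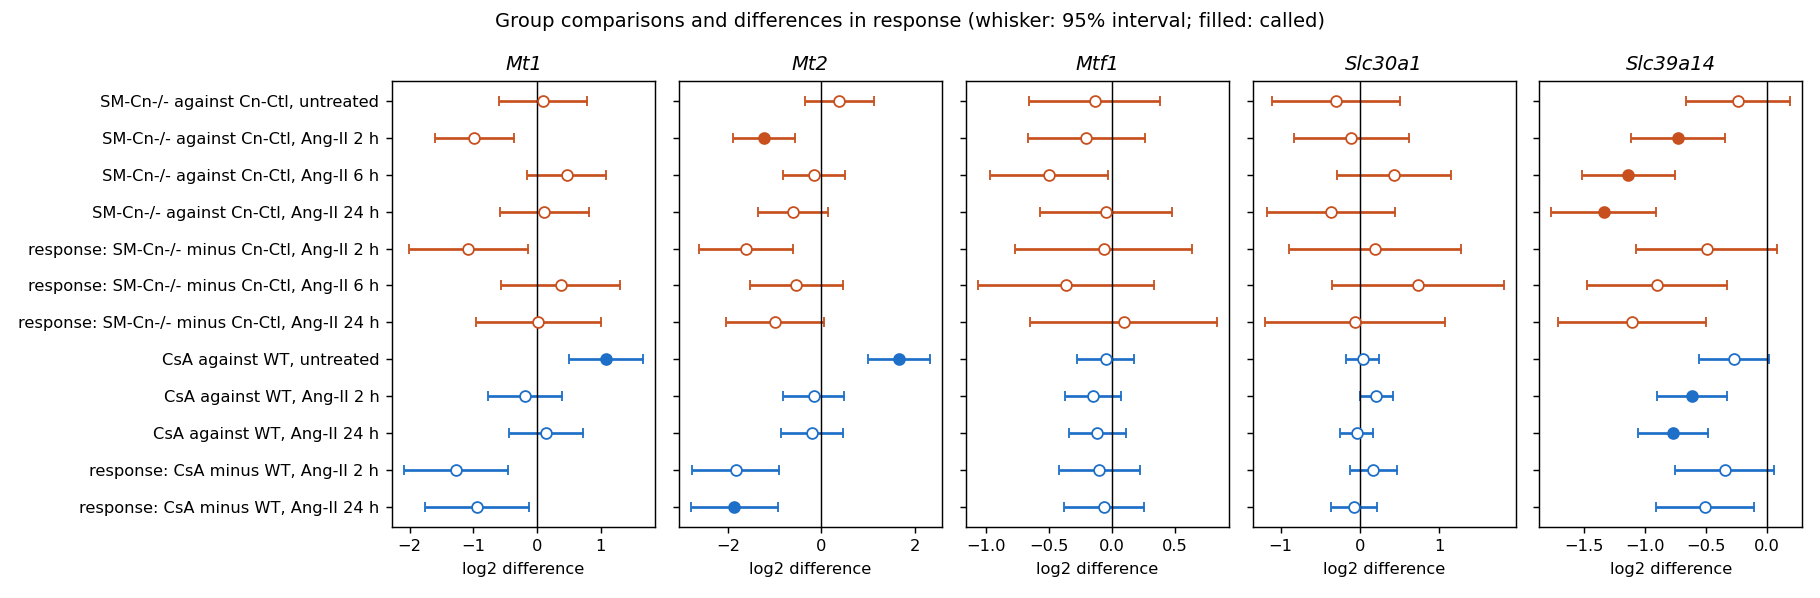
Log2 difference between groups at each time of Ang-II, and the difference in response, for the 5 genes (points; whiskers, 95% interval; filled points were called). Slc39a14 is called below 0 with Cn deleted or CsA given at every time of Ang-II. Without Ang-II its points are also below 0 and not called, and none of its differences in response is called. Mt1 and Mt2 are called above 0 in untreated CsA libraries.

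Lists of genes of the glucocorticoid, IL-6 and NRF2 responses and of iron and copper handling were read in the same fits. The part of any of these in the metallothionein values was not tested. In Cn-Ctl 4.72%, 2.72% and 3.22% of all genes rose at 2, 6 and 24 h, and in SM-Cn-/- 0.984%, 1.5% and 0.638%. The genes named from these lists are those with the largest called differences in Cn-Ctl at 2 h, so values of the genotypes that use the same Cn-Ctl libraries are given without a p. Of 12 glucocorticoid-responsive genes, 7, 5 and 1 rose in Cn-Ctl at 2, 6 and 24 h and 6, 8 and 1 in SM-Cn-/-, with 0 falling, and medians at 2 h of 1.44 and 0.98 beside 0.01 and -0.01 over all genes. Fkbp5, a glucocorticoid receptor co-chaperone, rose by 2.97 ± 0.31 in Cn-Ctl and by 3.70 ± 0.28 in SM-Cn-/- (limma adjusted p = 1.01e-07) at 2 h. Sgk1, a kinase, rose by 2.43 ± 0.28 and 1.46 ± 0.25 and differed by -1.12 ± 0.25 in SM-Cn-/- against Cn-Ctl at 2 h, and Cdkn1a, a cell cycle inhibitor, rose in Cn-Ctl (2.98 ± 0.36) and differed by -1.19 ± 0.32. In the CsA experiment 11 of the 12 rose in WT and 10 in CsA at 2 h, where 11.4% and 12.3% of all genes rose, and 7 were higher in untreated CsA than in untreated WT, where 13.9% of all genes were, Fkbp5 (0.95 ± 0.20, adjusted p = 0.00417) and Cdkn1a (1.15 ± 0.19, adjusted p = 0.001) among them.

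Of 14 genes of IL-6 signalling and the acute phase, 8, 4 and 6 rose in Cn-Ctl at 2, 6 and 24 h and 0, 1 and 2 in SM-Cn-/-. Their medians at 2 h were 1.38 and 0.21. Socs3, the feedback inhibitor of STAT3, rose in Cn-Ctl at 2 h (2.94 ± 0.44) and its response in SM-Cn-/- minus that in Cn-Ctl was -3.36 ± 0.59. Il6 (2.39 ± 0.71) and Timp1, an inhibitor of metalloproteinases (2.16 ± 0.54), rose in Cn-Ctl at 2 h too. In untreated CsA against untreated WT mice 6 of the 14 were higher and 0 lower (13.9% and 11.4% of all genes), and at 24 h the response of 11 of the 14 was lower in CsA than in WT (4.89% of all genes). Of 10 genes of the NRF2 response, 3, 1 and 2 rose in Cn-Ctl and 0, 1 and 1 in SM-Cn-/- at 2, 6 and 24 h. Hmox1, heme oxygenase, rose by 2.22 ± 0.56 at 2 h in Cn-Ctl, Gclc by 1.18 ± 0.25 and Txnrd1 by 0.92 ± 0.20. Of 12 genes of iron and copper handling, 0, 1 and 1 rose in Cn-Ctl at 2, 6 and 24 h and 0, 0 and 1 in SM-Cn-/-. In the CsA experiment, 6 and 3 NRF2 genes rose in WT at 2 and 24 h (11.4% and 18.1% of all genes) and 5 and 3 in CsA (12.3% and 5.2%). Of 11 iron and copper genes, 1 and 3 rose in WT at 2 and 24 h, and 0 and 0 in CsA. In WT 0 and 2 fell at these times, the 2 at 24 h beside 16.9% of all genes. In CsA 1 and 0 fell, the 1 at 2 h beside 7.84% of all genes. Cebpd, given above for its likeness to Mt2, belongs to the acute phase list.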

How the data were processed

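RNA of 40 libraries, each a pool of 3 mouse aortas, was analysed from 2 tables that had been normalized separately, 22 libraries of the genotype experiment and 18 of the CsA experiment. Per the labels and the study's methods, RNA was reverse-transcribed with oligo-dT primers and the libraries were sequenced on a Genome Analyzer IIx, mapped with Bowtie 0.12.7 and quantified with RSEM 1.16 against Ensembl transcripts of GRCm38; further settings are not given in the sources used here. The deposited signal is (reads + 0.5) on a counts-per-million scale, with library sizes scaled by the authors. All values converted to whole reads within a tolerance of 1e-06, so count models could be run as alternatives. The counting is not stated to use strand.

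The values were transformed as log2(signal + 0.5), protein-coding genes (GENCODE M21 biotypes) with a signal of at least 1 in at least 2 libraries were kept (14424 and 13738 genes), and limma 3.58.1 (R 4.3.3) was fitted with 1 mean per group over all groups of a table, a trended prior and Benjamini-Hochberg adjustment over all genes of each of 22 comparisons. A fold change on this scale understates that of low genes. The fit was also run on counts simulated from a common mean per gene, with and without added changes. The simulation held no differences in cell content between groups, so it does not bear on those. Alternatives were edgeR 4.0.16 quasi-likelihood and DESeq2 1.42.0 on the recovered reads, quantile normalization, a pseudocount of 2, other filters, only the groups compared, a replicate block and each library left out. The p-values measure the spread between pools of 3 aortas. Median within-group SD over genes was 0.213 to 0.395 (log2) in the genotype and 0.126 to 0.184 in the CsA experiment, where depth was greater. No 2 libraries of a group agreed within sampling noise (chi-square per degree of freedom 6.17 to 85.2).

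The 5 genes and all gene lists were chosen with earlier results of these data known. The text names the 5 genes in every comparison, each other metallothionein or zinc transporter gene called in at least 1 response or group comparison, up to 3 genes of each other list with the largest called difference in Cn-Ctl at 2 h, the 5 genes most like Mt2 and the 5 most like Slc39a14, Ppp3r1 and Rcan1.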

Additional observations from a re-analysis of the deposited data

Results flagged for a closer look

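Among the genes named in the text, 19 differences in response to Ang-II between the arms of an experiment passed limma's test of the difference over all genes tested. All 19 are negative. Most of these genes were named for large differences in Cn-Ctl mice or for likeness to Mt2 or Slc39a14 over these same libraries, so the sign is not independent of that choice. Over all genes, 622 differences in response were called higher and 672 lower in CsA than in WT mice at 24 h, 3 and 17 at 2 h, and 3 higher and 71 lower in SM-Cn-/- than in Cn-Ctl at 2 h and 23 and 51 at 24 h. Groups of 2 and 3 libraries are too small to test for single outlying libraries.

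Among the 5 metallothionein and zinc genes this held for Mt2 at 24 h in the CsA experiment (log2 -1.88), a description since Mt2 was chosen on these values. Slc39a8 was the other zinc gene (-2.68 at 24 h in the CsA experiment, adjusted p = 0.033). Rcan1, the Cn target, differed by -3.11 at 2 h in the genotype experiment (adjusted p = 0.00289) and by -1.28 at 24 h in the CsA experiment (adjusted p = 0.0168). Of the genes named from the lists for their Cn-Ctl difference, Socs3 was at -3.36 at 2 h and Timp1 at -3.44 at 24 h in the genotype experiment, given without a p because they share the libraries that chose them. In the CsA experiment at 24 h the difference was -2.66 for Timp1 (0.00336), -2.29 for Il6 (0.0467), -1.92 for Socs3 (0.0203), -1.67 for Cdkn1a (0.00336) and -1.30 for Hmox1 (0.00878), all adjusted p, and at 2 h it was -1.47 for Cdkn1a (0.0416). The genes chosen for likeness to Mt2 or Slc39a14 are described without a p: Plpp1 was at -1.47 at 24 h in the genotype experiment, Por was at -1.19 at 2 h in CsA minus WT, and the 24 h values of that experiment were -0.96 for Cebpd, -0.67 for Slc3a2, -0.69 for Plpp1, -0.77 for Rras2 and -0.69 for Ddx21. The marker sums given above differed between untreated CsA and untreated WT libraries, and their part in these values was not tested.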

How the results depend on the processing

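Over all alternatives, 3450 log2 differences of the 5 genes were recomputed: 3417 stayed within the spread of the main value, 33 moved further and 0 reversed. Of 690 recomputed counts of called genes, 657 stayed within 1.5 times the main count. Quantile normalization gave 0 in place of 2 for SM-Cn-/- against Cn-Ctl at 2 h and 0 in place of 1 for CsA against WT at 2 h. It also lost the Mt1 call in the CsA response at 2 h (log2 0.60). Fitting only the groups compared gave 0 in place of 1 for SM-Cn-/- against Cn-Ctl at 6 h and for CsA against WT at 2 h and at 24 h, 1 in place of 2 for the CsA response at 24 h, 2 in place of 3 for the Cn-Ctl response at 6 h, and 1 in place of 0 for the CsA difference in response at 2 h. DESeq2 gave 3 in place of 2 for SM-Cn-/- against Cn-Ctl at 2 h and for the CsA response at 24 h, 1 in place of 0 for the genotype difference in response at 24 h and 2 in place of 0 for the CsA difference in response at 2 h. Fitting fewer samples leaves fewer degrees of freedom; otherwise the cause was not tested. Leaving out each library in turn gave 1 to 3 genes called for the SM-Cn-/- response at 2 h, 0 to 3 for SM-Cn-/- against Cn-Ctl at 2 h, 0 to 1 for the genotype difference in response at 24 h, 1 to 3 for the CsA responses at 2 h and at 24 h, 0 to 1 for CsA against WT at 2 h and at 24 h, 0 to 2 and 0 to 3 for the CsA differences in response at 2 h and 24 h, and 2 to 3 for the Cn-Ctl responses at 6 h and 24 h.

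The replicate numbers are not stated to mark shared animals or days, and correlations of same-numbered libraries were mixed, with all 3 pairs over 0.1 for untreated CsA with CsA at 2 h (0.222 to 0.355) and for Cn-Ctl at 6 h with SM-Cn-/- at 2 h (0.246 to 0.466), which were not compared with each other. With a replicate block, 3 genes were called for the CsA response at 2 h as without it, 3 in place of 2 for the CsA response at 24 h, and 0 in place of 1 for CsA against WT at 2 h; every other count was unchanged by the block. Depth limits Slc30a1 in the genotype experiment, on 27 to 194 reads.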
